A study of Mus musculus with 20 samples.

Results

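Transcripts of the antibody genes were followed in 2 tissues of IR 4A and WT mice, the epididymal fat pad (labelled eWAT, which lies against the epididymis) and the liver. The genes were chosen by symbol alone, as every gene of the heavy chain locus (variable, Ighm, Ighd, the Ighg genes, Igha), the kappa locus (variable, Igkc) and the lambda locus (variable, Iglc) named in the count tables, without Ighmbp2, which only shares the first letters. This gave 91 genes of the 20996 in both tables together. In liver 76 of them were listed among 15608 genes, and in eWAT 77 among 20738, with 62 in both. Each table held 10 constant genes. The variable genes were 66 in liver (18 heavy, 45 kappa, 3 lambda) and 67 in eWAT (19 heavy, 46 kappa, 2 lambda).

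The samples were 20 libraries of poly-A RNA, 5 in each of 4 groups: eWAT of IR 4A mice, liver of IR 4A mice, eWAT of WT mice and liver of WT mice. All were males aged 2 months. IR 4A mice carry an insulin receptor whose MAD2-interacting motif is changed (MAD2 is best known from the mitotic checkpoint), and the study asked what uptake of the receptor through MAD2 does for metabolism. The labels do not give the strain, the reach of the allele over tissues or the animal behind a library, so p-values measure the spread between libraries. A changed motif leaves the receptor's transcript in place, and counts per gene therefore do not check the genotype labels.

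An antibody is built of a heavy chain and a light chain (kappa or lambda), and each chain joins a variable part, which binds the antigen, to a constant part, which in the heavy chain sets the class. B cells join 1 variable gene to short D or J segments and transcribe it through to the constant gene, so a mature transcript carries both. Resting B cells carry IgM and IgD (Ighm, Ighd) on their surface. Plasma cells, which secrete antibody, hold far more immunoglobulin messenger per cell, and those of the gut and its drainage make mostly IgA (Igha), part of which reaches the liver and the bile. Fat depots of the body cavity hold B-1 cells, which make IgM without known infection.

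In GENCODE M21 (GRCm38; the authors' build was GRCm39) the 91 genes lay in 3 clusters. The 29 heavy chain genes lay on chromosome 12 (113254830 to 115981134), the 56 kappa genes on chromosome 6 (67609713 to 70726966) and the 6 lambda genes on chromosome 16 (19061618 to 19260859). Shared sequence was looked for among immunoglobulin transcripts only, leaving out any Iglc2 transcript annotated as protein coding. No 100-base window of a constant gene was shared with another gene there, whereas 36 of the 81 variable genes shared at least 1 such window. For 2 of these, Ighv1-62-2 and Igkv6-20, shared windows made up more of the transcript than their own, so their counts are uncertain.

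The lambda constant genes Iglc2 and Iglc3 are shown because they are near copies and were high in the same eWAT library. Their coding sequences were identical at 301 of 312 aligned bases, or 96.5%, against 74.9% for Iglc1 and Iglc2. In the coding stretch printed here, from the GENCODE transcripts of chr16:19198396-19200351 (Iglc2) and chr16:19065230-19065681 (Iglc3), both on the minus strand, capitals mark the 7 bases that differ.
Iglc2: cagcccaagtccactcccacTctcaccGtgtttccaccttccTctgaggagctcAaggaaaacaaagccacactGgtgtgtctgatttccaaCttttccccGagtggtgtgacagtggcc
Iglc3: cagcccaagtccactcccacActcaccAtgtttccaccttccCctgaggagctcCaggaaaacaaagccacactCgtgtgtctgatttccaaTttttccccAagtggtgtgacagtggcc

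Ighv11-2 and Igkv14-126 are shown because they were among the highest variable genes of eWAT and are known as a pair: together they form the receptor of many B-1 cells, which binds phosphatidylcholine. The last 300 bases of each coding sequence are given, from chr12:114048241-114048812 (Ighv11-2, minus strand) and chr6:67896172-67896642 (Igkv14-126, plus strand). Capitals mark the 162 bases of Ighv11-2 where shared 100-base windows lie, all with its neighbour Ighv11-1. Igkv14-126 had none in the stretch.
Ighv11-2: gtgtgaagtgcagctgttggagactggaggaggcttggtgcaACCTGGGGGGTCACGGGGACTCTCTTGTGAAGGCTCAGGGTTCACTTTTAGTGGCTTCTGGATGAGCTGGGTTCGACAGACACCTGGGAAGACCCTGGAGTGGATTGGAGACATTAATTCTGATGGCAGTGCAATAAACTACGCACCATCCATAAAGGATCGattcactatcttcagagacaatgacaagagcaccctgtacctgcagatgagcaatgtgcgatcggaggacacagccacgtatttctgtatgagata
Igkv14-126: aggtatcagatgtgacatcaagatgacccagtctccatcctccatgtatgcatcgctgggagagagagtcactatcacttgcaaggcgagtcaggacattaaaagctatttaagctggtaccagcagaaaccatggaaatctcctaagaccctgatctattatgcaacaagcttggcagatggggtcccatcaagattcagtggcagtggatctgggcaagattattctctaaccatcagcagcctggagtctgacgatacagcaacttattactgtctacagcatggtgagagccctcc

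Library totals ran from 13651874 to 21615358 counts in eWAT and from 17989420 to 24238359 in liver. The labelled tissues carried their markers: summed hepatocyte markers ran from 66455 to 82992 CPM (counts relative to the TMM-scaled library size) in liver, and summed adipocyte markers from 2979 to 32721 CPM in eWAT. The eWAT libraries stood apart from one another, with summed epididymis markers of 4742 to 23453 CPM and summed sperm and testis markers of 141 to 6508 CPM. In liver no sperm and testis marker and 1 of 12 epididymis markers was listed.

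In liver the summed immunoglobulin level was 1.75 times as high in IR 4A as in WT, and the groups did not overlap. The IR 4A livers held 74.0, 79.2, 99.3, 76.9 and 54.1 CPM and the WT livers 38.1, 45.6, 47.3, 50.4 and 38.3 CPM. The means were 76.7 ± 16.1 CPM in IR 4A and 43.9 ± 5.53 CPM in WT (SD, n = 5 each), a log2 ratio of 0.80. Without WT 1 and WT 3, an omission chosen after seeing the data, it was 0.78. On unscaled totals the nearest libraries were IR 4A 5, with 56.3 CPM (95% Wilson interval 53.0 to 59.9, counting error only), and WT 3, with 47.1 (44.2 to 50.1). Since the genes were taken as a set with earlier results of these data known, the sum was given no p-value. More cells that make antibody and more messenger per such cell cannot be told apart in bulk RNA.

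Each part of the antibody was higher in IR 4A liver, by ratios of 1.67 to 1.93. Constant genes summed to 64.3 ± 13.5 CPM in IR 4A livers and 37.5 ± 4.78 CPM in WT livers, a ratio of 1.71. Variable genes summed to 12.4 ± 2.85 CPM in IR 4A livers and 6.44 ± 1.00 CPM in WT livers, a ratio of 1.93. By chain, the ratios were 1.83 for heavy, 1.67 for kappa and 1.82 for lambda genes, and in each of these sums every IR 4A liver lay above every WT liver. Variable genes made up 14.8 to 18.3% of the immunoglobulin counts in IR 4A livers and 12.5 to 16.2% in WT livers, and these ranges overlap.

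**Figure D1:**
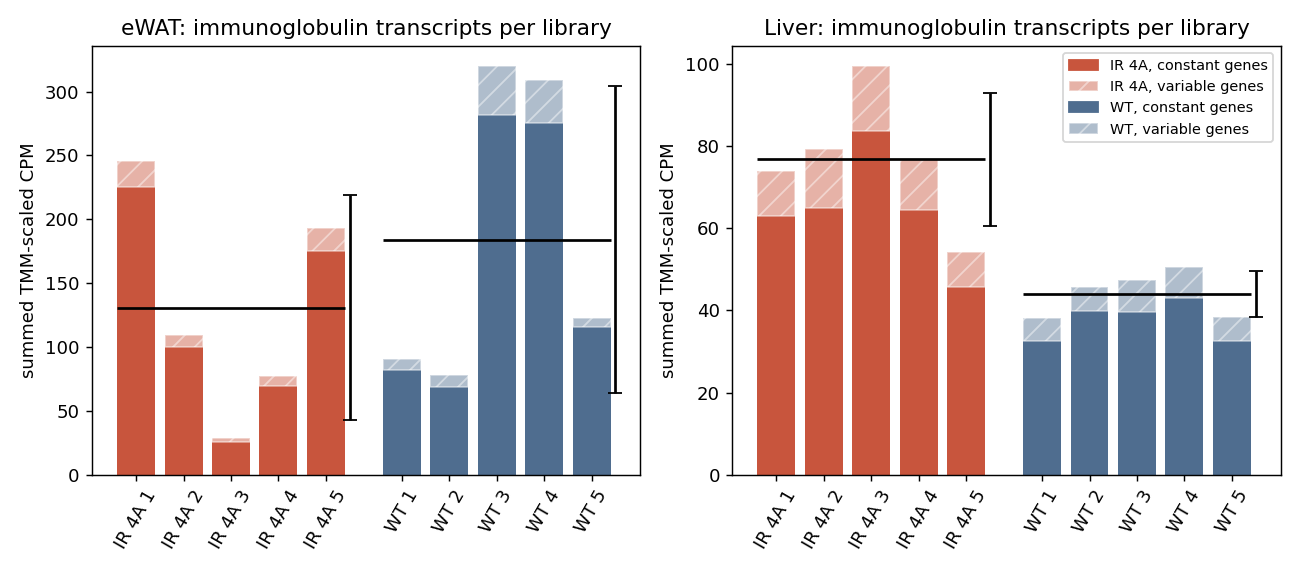
Summed immunoglobulin level per library (TMM-scaled CPM) in eWAT (left) and liver (right), with constant genes as the filled part and variable genes as the hatched part of each bar. Lines are group means and bars at their right end the SD (n = 5); the 5 IR 4A livers, 54.1 to 99.3 CPM, lie above the 5 WT livers, 38.1 to 50.4 CPM, while the eWAT groups overlap.

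Gene by gene the liver counts were low: 57 of the 76 members had under 50 counts over the 10 libraries together, and 8 passed the low count filter of the test. None of these 8 passed an adjusted p of 0.05 in edgeR's quasi-likelihood test, where 0.00805% of all 12421 tested genes did. Their adjusted p ran from 0.0751 to 0.206, and all 8 had an unadjusted p under 0.05, as 18.1% of all tested genes did, each higher in IR 4A. Igkv1-110, Igkv10-96 and Ighd reached the filter's 10 counts wholly or mainly in IR 4A livers, so their direction was partly set by being tested, and the count of 8 is no support for a change of the members. DESeq2 called 4 of them higher (Igkc, Igha, Ighg2b and Ighg2c), against 1.85% of genes called higher by it. limma voom called 0 (0.0322% of genes). With library totals in place of TMM edgeR called 4 (Igkc, Igha, Ighg2b and Igkv1-110), against 3.01% of genes called higher, and the median of all genes moved to 0.16 there. Without IR 4A 1, with TMM, it called 2, Ighg2b and Igkv1-110 (adjusted p = 0.0439 for both), against 0.637% of genes called higher. In the authors' deposited table there were 3 members called higher, Igkc (log2 fold change 0.69, adjusted p = 0.00438), Igha (0.68, adjusted p = 0.0176) and Ighg2b (1.28, adjusted p = 0.0214), where 1.16% of genes were called higher.

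Over all 76 liver members, in a fit without the filter, 64 had a log2 fold change above 0, and the median was 0.84. Over all 15608 listed genes 50.2% were above 0, with a median of 0.002. Setting the 2 members with no count in WT at their bound (3 counts over the WT group) left the median at 0.84. By class, 10 of 10 constant, 15 of 18 heavy variable, 37 of 45 kappa variable and 2 of 3 lambda variable genes were above 0. The members share cells and libraries, so these counts are not those of independent genes.

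Among the constant genes of liver, Igkc, the single constant part of kappa chains, had the most counts. It held 28.2, 32.8, 38.9, 30.5 and 21.5 CPM in IR 4A livers and 16.4, 20.4, 20.9, 20.5 and 16.2 CPM in WT livers. The lowest IR 4A liver lay just above the highest WT liver. The log2 fold change was 0.69 (SE 0.14, edgeR adjusted p = 0.106).

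Igha, the heavy chain of IgA, held 17.7, 20.9, 24.6, 16.2 and 14.0 CPM in IR 4A livers and 9.65, 12.1, 11.4, 14.5 and 10.3 CPM in WT livers. The groups met in 1 place, WT 4 lying above IR 4A 5. Its log2 fold change was 0.69 (SE 0.16, edgeR adjusted p = 0.113). Igha was the main heavy chain class of liver per length: it averaged 17.0 CPM per kilobase in IR 4A and 10.5 in WT, on the shortest annotated transcript, against 3.41 in IR 4A and 1.65 in WT for Ighm. It took 49.9 to 69.8% of the heavy constant counts in IR 4A livers and 63.5 to 66.8% in WT livers.

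The IgG genes were lower in level. Ighg2b, an IgG2b chain, held 2.05, 3.26, 7.22, 6.46 and 3.58 CPM in IR 4A livers and 2.08, 2.37, 1.85, 1.79 and 1.15 CPM in WT livers. IR 4A 1 alone lay within the WT range, and the log2 fold change was 1.30 (SE 0.33, edgeR adjusted p = 0.128). Ighg2c, the IgG2c chain found in some mouse strains in place of IgG2a, stood at 1.14 on the same scale (SE 0.35, edgeR adjusted p = 0.156). Ighg3 had 1 to 4 counts per liver library and was not tested.

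Ighm, the heavy chain of IgM, held 10.7, 2.61, 4.21, 4.81 and 3.11 CPM in IR 4A livers and 1.51, 1.49, 2.65, 3.64 and 3.04 CPM in WT livers. IR 4A 1 stood far above the other libraries. The log2 fold change was 1.05 (SE 0.39, edgeR adjusted p = 0.206), and 0.58 without IR 4A 1. Ighd, the heavy chain of IgD, held 0.669, 1.05, 1.47, 1.60 and 0.422 CPM in IR 4A livers and 0.561, 0.442, 0.550, 0.370 and 0.199 CPM in WT livers. Its log2 fold change was 1.30 (SE 0.41, edgeR adjusted p = 0.164).

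**Figure D2:**
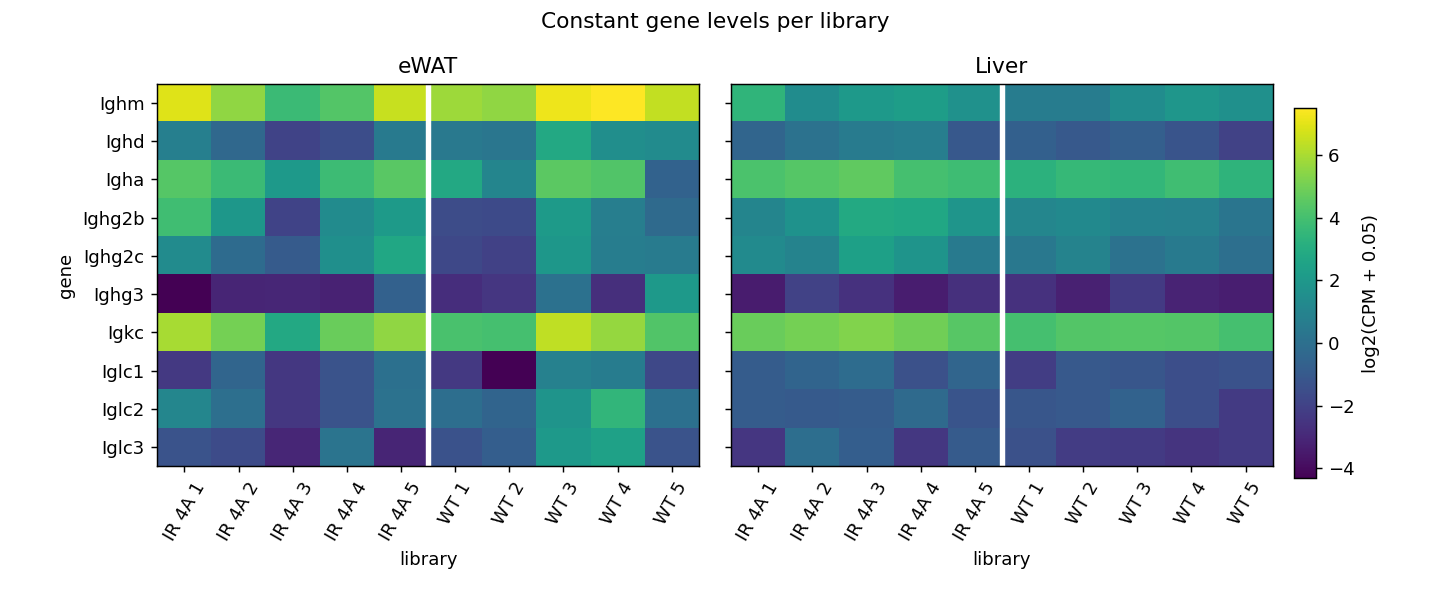
Level of the 10 constant genes in each library, as log2(CPM + 0.05), with IR 4A libraries left of the white line and WT libraries right of it, in eWAT (left) and liver (right). In liver Igkc and Igha lead in every library; in eWAT Ighm leads in every library but IR 4A 4, where Igkc does, and Igha is lowest in WT 5 (0.606 CPM).

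The lambda genes were the smallest part of the liver sum. Lambda constant genes made up 3.80 to 6.65% of light chain constant counts in IR 4A livers and 3.48 to 5.22% in WT livers. Iglv1 held 9, 30, 18, 13 and 11 counts in IR 4A livers and 3, 6, 7, 4 and 4 in WT livers, without overlap on the CPM scale.

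Among the variable genes of liver, 2 kappa genes could be tested. Igkv1-110 had 17, 20, 17, 18 and 13 counts in IR 4A livers and 5, 3, 4, 5 and 5 in WT livers, and it lay closest to the threshold of all members (log2 fold change 1.69, SE 0.29, edgeR adjusted p = 0.0751). Igkv10-96 had 11, 23, 35, 11 and 13 counts in IR 4A livers and 5, 5, 12, 4 and 3 in WT livers (1.40, SE 0.43, edgeR adjusted p = 0.155). In all, 5 of the 76 members had every IR 4A liver above every WT liver (Igkc, Iglv1, Igkv1-110, Igkv1-117 and Igkv6-14), a pattern held by 1.56% of all genes. Igkv6-14 rests on 11 counts in IR 4A and 0 in WT, where a count of 0 allows up to 3. None had every IR 4A liver below every WT liver, a pattern held by 1.5% of all genes.

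No variable gene dominated a liver. The leading one took 6.91 to 10.4% of the variable counts in IR 4A livers and 5.00 to 10.7% in WT livers, and its identity differed between libraries (Igkv1-110, Iglv1, Igkv10-96 or Igkv15-103 in IR 4A; Igkv13-84, Ighv1-53, Igkv10-96, Igkv5-43 or Igkv15-103 in WT). IR 4A livers showed 46 to 60 variable genes with a count and WT livers 37 to 49, but they also had more counts to find them with. Thinned to 100 variable counts per library, the effective number of variable genes (the exponential of Shannon's entropy) was 31.3 ± 3.15 in IR 4A livers and 32.1 ± 3.01 in WT livers (SD, n = 5 each), a difference well within the spread.

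Genes of antibody-making cells were read beside these sums in liver. Jchain, which joins IgA and IgM into polymers and marks plasma cells, held 4.37, 6.08, 7.30, 5.61 and 4.43 CPM in IR 4A livers and 1.68, 2.54, 5.20, 5.31 and 2.74 CPM in WT livers (log2 fold change 0.67, SE 0.29, edgeR adjusted p = 0.255). Of the B cell list 21 of 22 genes were listed and 5 tested, with a median log2 fold change of -0.02 against 0.005 for all tested genes. The summed level of the 21 listed genes was 4.82 to 13.2 CPM in IR 4A livers and 6.33 to 16.2 CPM in WT livers. Ly6d, which marks B cell progenitors, had the smallest p of the list, with 14, 15, 9, 18 and 6 counts in IR 4A livers and 158, 4, 91, 16 and 6 in WT livers (log2 fold change -2.37, SE 0.86, edgeR adjusted p = 0.199). The 158 and 91 counts stood in WT 1 and WT 3, and the other 8 livers overlap. These counts are part of the B cell sums of WT 1 and WT 3, 16.2 and 10.5 CPM. In the other WT livers the sum was 6.33 to 8.27 CPM. Ms4a1, which encodes CD20, showed a log2 fold change of -0.53 ± 0.38 (SE) in edgeR (adjusted p = 0.48) and Cd22, an inhibitory receptor of B cells, 0.07 (SE 0.30, edgeR adjusted p = 0.93).

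The signalling chains of the B cell receptor were too low for the test in liver. Cd79a, the first of them, had 3, 14, 24, 19 and 5 counts in IR 4A livers and 2, 2, 1, 0 and 10 in WT livers. Its partner Cd79b had 8, 7, 20, 16 and 7 counts in IR 4A livers and 3, 4, 10, 3 and 0 in WT livers. Mzb1, a chaperone of antibody secretion, had 0 to 10 counts in IR 4A livers and 0 to 7 in WT livers. These 3 genes overlap between the groups.

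The list of plasma cell and antibody assembly genes had 13 tested members in liver, of which 10 had a log2 fold change below 0 (median -0.26). Most of these are folding factors that hepatocytes also make. Creld2, an endoplasmic reticulum stress protein, had -1.01 on the log2 scale (SE 0.31, edgeR adjusted p = 0.156), and Txndc5, a disulfide isomerase, had -0.39 (SE 0.11, edgeR adjusted p = 0.139). DESeq2 called both lower, as it did 2.26% of genes. The list summed to 1753 to 2184 CPM in IR 4A livers and 1882 to 2704 CPM in WT livers, highest in WT 1. Pigr, which carries IgA across hepatocytes and other epithelia, had 1460 ± 94.9 CPM in IR 4A livers and 1369 ± 188 CPM in WT livers (log2 fold change 0.09, SE 0.11, edgeR adjusted p = 0.687). Fcgrt, which recycles IgG, showed a log2 fold change of 0.12 ± 0.12 (SE) in edgeR (adjusted p = 0.607).

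Other cell types overlapped between the liver groups. Summed macrophage markers were 70.8 to 243 CPM in IR 4A and 97.6 to 173 CPM in WT. Summed erythrocyte markers were 131 to 182 CPM in IR 4A and 94.6 to 202 CPM in WT, and summed T cell markers 3.17 to 6.53 CPM in IR 4A and 2.92 to 6.85 CPM in WT. Their part in the immunoglobulin values of liver was not tested. Median log2 fold changes were -0.16 for 6 tested genes of class switching and V(D)J joining, 0.12 for 9 of immunoglobulin receptors and transport, and 0.33 for 6 of B cell cytokines and homing. They were 0.23 for 10 macrophage, 0.13 for 4 erythrocyte, -0.50 for 2 T cell, 0.33 for 3 lymphoid stroma, 0.04 for 10 hepatocyte and 0.19 for 5 adipocyte genes. Of the 69 tested genes of the 13 lists, 0 passed in edgeR in liver, where 0.00805% of all tested genes did. An unadjusted edgeR p under 0.05 was held by 9 of them, and by 18.1% of all tested genes. DESeq2 called 2, both lower (2.26% of all genes called lower), and limma voom 0 (0.0322% called).

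In eWAT the summed immunoglobulin level varied more between libraries than between genotypes. The IR 4A samples held 245.6, 109.6, 28.4, 77.3 and 193.3 CPM and the WT samples 90.3, 78.1, 319.7, 308.7 and 122.4 CPM. The means were 131 ± 87.9 CPM in IR 4A and 184 ± 120 CPM in WT (SD, n = 5 each), a log2 ratio of -0.49. The lowest and the highest IR 4A sample differ by more than the group means do, and the groups overlap throughout. It was -0.85 without IR 4A 1, -0.23 without IR 4A 3, -0.20 without WT 3 and -0.22 without WT 4. Without IR 4A 3, IR 4A 4, WT 1 and WT 2, the 4 samples highest in sperm and testis markers (an omission chosen after seeing the data), it was -0.45. Over all 77 members 21 had a log2 fold change above 0 in a fit without the filter (median -0.68); over all 20738 listed genes 38.5% were above 0 (median -0.12).

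In eWAT 10 members could be tested and none passed in edgeR, where 0.0121% of all 16476 genes did. Of these 10, 1 (Ighd) had an unadjusted p under 0.05, which 15.9% of all tested genes had. DESeq2 called 0 as well, where it called 7.31% of genes, and limma voom 0, where it called 0.473%. The authors' deposited table calls 0 too, with 0.972% of genes called higher and 1.73% lower. No member had IR 4A and WT eWAT without overlap, where 2.07% of all genes lay wholly above and 2.69% wholly below.

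Ighm was the main heavy chain of eWAT. It held 120.2, 46.3, 13.5, 20.3 and 91.9 CPM in IR 4A samples and 54.9, 47.1, 149.9, 181.8 and 84.6 CPM in WT samples (log2 fold change -0.83, SE 0.63, edgeR adjusted p = 0.542). Per length it averaged 39.1 CPM per kilobase in IR 4A and 69.4 in WT, against 13.5 in IR 4A and 9.51 in WT for Igha. Ighd held 1.65, 0.751, 0.207, 0.300 and 1.44 CPM in IR 4A samples and 1.31, 1.18, 6.92, 2.82 and 2.55 CPM in WT samples. WT 3 stood above the rest, and the log2 fold change was -1.76 (SE 0.68, edgeR adjusted p = 0.265).

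Igha, Ighg2b and Ighg2c, the switched classes tested in eWAT, had log2 fold changes above 0 that did not pass. Igha held 20.6, 13.5, 4.07, 13.7 and 22.6 CPM in IR 4A samples and 6.93, 2.04, 23.3, 19.4 and 0.606 CPM in WT samples (log2 fold change 0.51, SE 0.84, edgeR adjusted p = 0.776). Ighg2b held 14.7, 3.82, 0.207, 2.58 and 4.38 CPM in IR 4A samples and 0.291, 0.263, 4.28, 1.61 and 0.788 CPM in WT samples (1.82, SE 1.02, edgeR adjusted p = 0.408; 0.92 without IR 4A 1 and 2.80 without WT 3). In both, high and low samples occur in both genotypes. Ighg2c showed a log2 fold change of 0.86 ± 0.88 (SE) in edgeR (adjusted p = 0.665), and 0.21 without IR 4A 5. Ighg3 had 0 to 9 counts per IR 4A sample and 2 to 67 per WT sample, the 67 in WT 5.

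As shares of the heavy constant counts within a library, 3 of the 6 classes of eWAT (Ighm, Igha and Ighd) did not overlap between the genotypes and 3 did. Ighm took 75.3, 71.0, 72.9, 51.0 and 72.2% in IR 4A samples and 86.1, 92.5, 79.2, 87.7 and 89.9% in WT samples. Igha took 12.9, 20.7, 21.9, 34.4 and 17.7% in IR 4A samples and 10.9, 4.01, 12.3, 9.35 and 0.645% in WT samples. Every IR 4A sample had a lower Ighm share and a higher Igha share than every WT sample. Ighd took 0.754 to 1.15% in IR 4A samples and 1.36 to 3.66% in WT samples, also without overlap. The shares that overlapped were those of Ighg2b (1.12 to 9.20% in IR 4A and 0.456 to 2.26% in WT), Ighg2c (1.25 to 7.24% in IR 4A and 0.380 to 2.01% in WT) and Ighg3 (0 to 0.462% in IR 4A and 0.0486 to 4.32% in WT). The nearest pair for Ighm was IR 4A 1, with a 95% Wilson interval of 73.4 to 77.0%, and WT 3, with 77.8 to 80.5%; for Igha it was IR 4A 1 (11.5 to 14.3%) and WT 3 (11.3 to 13.5%), which counting error does not separate. Dividing by transcript length left both without overlap, with the Ighm share 43.3 to 69.0% in IR 4A and 72.5 to 89.1% in WT on the shortest transcripts. These shares are scores over the members and were given no p-value. A share does not depend on scaling between libraries. The shares of a library add up to the whole, so the Ighm, Igha and Ighd separations are not 3 independent results. How often shares within other gene sets separate was not examined. In CPM all 3 genes overlapped between the genotypes.

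**Figure D3:**
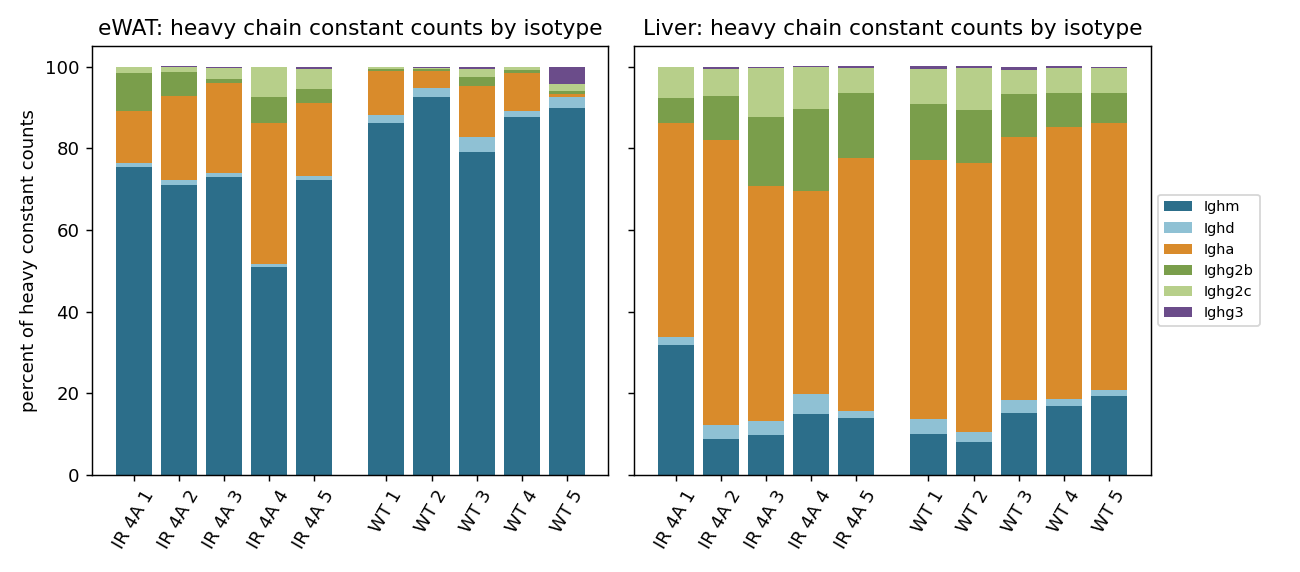
Share of each heavy chain class in the heavy constant counts of a library (percent, stacked to the whole), IR 4A left and WT right within eWAT (left) and liver (right). In eWAT the Ighm part is 51.0 to 75.3% in IR 4A and 79.2 to 92.5% in WT; in liver Igha is the largest part in every library.

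In liver the same shares overlapped. Ighm took 8.72 to 31.8% in IR 4A livers and 8.08 to 19.4% in WT livers, and the Igha shares given above overlap too.

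The light chains of eWAT also differed in share. Igkc held 62.9, 33.0, 6.96, 28.2 and 46.1 CPM in IR 4A samples and 17.0, 16.3, 82.8, 50.3 and 19.7 CPM in WT samples, with a log2 fold change of -0.07 ± 0.62 (SE) in edgeR (adjusted p = 0.957) whose sign turned without IR 4A 3, IR 4A 4, WT 3 or WT 4. Lambda constant genes made up 3.94 to 6.19% of light constant counts in IR 4A samples and 6.77 to 26.4% in WT samples, the 26.4% in WT 4. The IR 4A samples all lay below the WT samples, but the nearest, IR 4A 4 (4.39 to 8.65%) and WT 2 (4.32 to 10.4%), overlap in their 95% Wilson intervals. Light constant counts were 0.378 to 0.756 of the heavy constant counts in IR 4A eWAT and 0.226 to 0.486 in WT eWAT, and 0.873 to 1.16 in IR 4A liver and 0.980 to 1.25 in WT liver.

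The high lambda share of WT 4 came with a distinct set of genes. In that library Iglc2 had 221 counts, against 10 to 64 in the other WT samples and 2 to 29 in IR 4A samples. Iglc3 had 107, Iglv2 116, Igkv4-91 65 and Ighv10-3 68 counts there. The other 9 eWAT libraries had at most 77, 20, 20 and 9 counts of these 4 genes. Iglc2 showed a log2 fold change of -1.90 ± 0.93 (SE) in edgeR (adjusted p = 0.353), and -0.69 without WT 4.

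**Figure D4:**
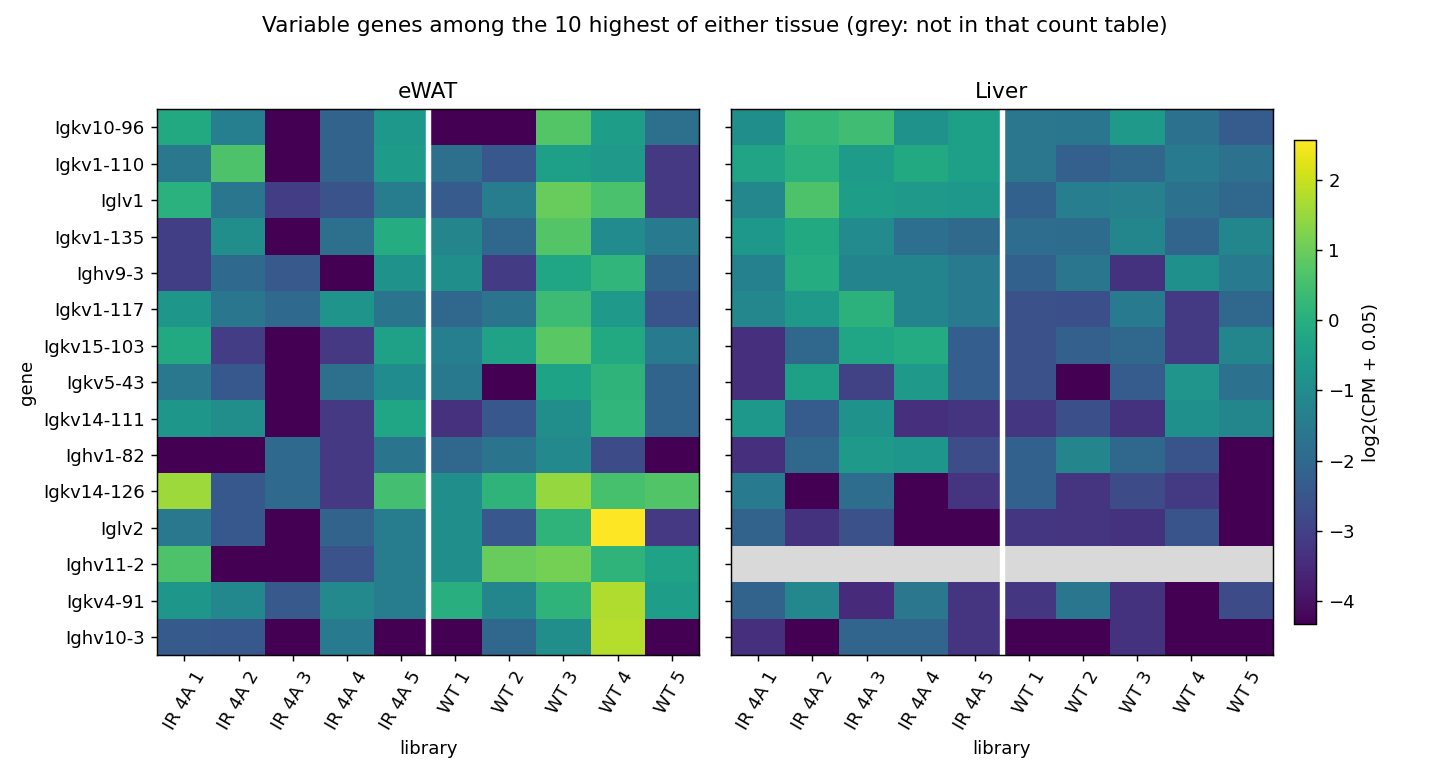
Level of the 15 variable genes that were among the 10 highest of eWAT or of liver, as log2(CPM + 0.05) per library, IR 4A left of the white line. Ighv11-2 is not in the liver count table (grey); Iglv2, Igkv4-91 and Ighv10-3 are brightest in eWAT WT 4.

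The B-1 pair was spread over many eWAT libraries. Igkv14-126 had 40, 2, 3, 1 and 21 counts in IR 4A samples and 10, 16, 51, 28 and 26 in WT samples (log2 fold change -0.64, SE 0.90, edgeR adjusted p = 0.745; -1.68 without IR 4A 1). Ighv11-2 had 21, 0, 0, 2 and 5 counts in IR 4A samples and 10, 29, 40, 21 and 12 in WT samples (-1.69, SE 1.01, edgeR adjusted p = 0.437; -3.39 without IR 4A 1). Ighv11-2 reached the filter's 10 counts mainly in WT samples, so its direction was partly set by being tested. Both genes of the pair were found in every WT sample, and in IR 4A both were highest in samples 1 and 5. In WT 2, WT 3 and WT 5 they were the top 2 variable genes of the library. Igkv15-103, the other variable gene tested in eWAT, had 12, 1, 0, 1 and 11 counts in IR 4A samples and 7, 11, 32, 17 and 5 in WT samples (-1.19, SE 0.91, edgeR adjusted p = 0.545), again highest in samples 1 and 5 of IR 4A. Igkv14-126 had 0 to 7 counts in IR 4A livers and 0 to 3 in WT livers, and Ighv11-2 was not listed there.

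The spread over variable genes in eWAT was compared at 100 variable counts per library. IR 4A 3 held 37 and was left out. In the others the effective number was 29.2 ± 3.94 in IR 4A (SD, n = 4) and 23.4 ± 6.29 in WT (SD, n = 5), which overlap. The leading variable gene took 7.26 to 16.1% of variable counts in IR 4A samples and 7.01 to 22.2% in WT samples. Variable genes made up 8.34 to 9.63% of all immunoglobulin counts in IR 4A eWAT and 5.79 to 12.5% in WT eWAT.

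B cell genes were also read in eWAT. Cd79a showed a log2 fold change of -1.80 ± 0.71 (SE) in edgeR (adjusted p = 0.271), Cd79b of -1.49 (SE 0.73, edgeR adjusted p = 0.35) and Ms4a1 of -1.39 (SE 0.51, edgeR adjusted p = 0.249). Of the B cell list 16 were tested, 12 had a log2 fold change below 0 and the median was -1.15, against -0.08 for all tested genes. Ly6d was among the 4 above 0 (0.77, SE 0.53, edgeR adjusted p = 0.498). Cxcr5, the receptor that draws B cells into follicles, was called lower by DESeq2 (log2 fold change -1.79, SE 0.60, edgeR adjusted p = 0.236). DESeq2 called 7.31% of all genes higher or lower.

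Plasma cell genes overlapped between the eWAT groups. Jchain held 8.24, 5.05, 1.10, 5.28 and 8.88 CPM in IR 4A samples and 3.69, 5.40, 12.2, 9.81 and 1.82 CPM in WT samples (log2 fold change -0.21, SE 0.60, edgeR adjusted p = 0.864). Mzb1 had 1 to 11 counts in IR 4A samples and 3 to 24 in WT samples. The list of plasma cell and antibody assembly genes had 18 tested members with a median of -0.05. Pou2af1, a coactivator of immunoglobulin promoters, showed a log2 fold change of -0.95 ± 0.48 (SE) in edgeR (adjusted p = 0.362). Ccl21a, a chemokine that draws lymphocytes, had -1.71 (SE 0.38, edgeR adjusted p = 0.173). It was called lower by DESeq2 (7.31% of all genes called higher or lower) and by limma voom (0.473%). Pigr had 7 to 72 counts in IR 4A samples and 7 to 868 in WT samples, the 868 in WT 1, and Fcgrt a log2 fold change of -0.88 ± 0.39 (SE) in edgeR (adjusted p = 0.315).

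Markers of other cells and tissues differed between the genotypes in the same eWAT libraries. Summed macrophage markers were 158 to 360 CPM in IR 4A and 453 to 1364 CPM in WT, and summed epididymis markers 16748 to 23453 CPM in IR 4A and 4742 to 15456 CPM in WT, both without overlap. Summed lymphoid stroma markers were 7.93 to 22.9 CPM in IR 4A and 25.4 to 54.4 CPM in WT, also without overlap. Of the 8 listed genes of that sum, 1 lay wholly below WT by itself, a pattern held by 2.69% of all genes. Summed B cell markers averaged 66.8 ± 29.6 CPM in IR 4A and 131 ± 48.6 CPM in WT and overlapped. Ebf1 of that list was higher in WT eWAT than in WT liver by 8.29 on the log2 scale, against 2.76 for Cd79a and 0.18 for Ms4a1. Its part in the B cell sum was not examined, so the sum may not follow B cells alone. Adipocyte markers overlapped too, at 2979 to 16178 CPM in IR 4A and 9801 to 32721 CPM in WT, as did sperm and testis markers, at 141 to 3064 CPM in IR 4A and 164 to 6508 CPM in WT. Erythrocyte markers were 53.2 to 348 CPM in IR 4A and 69.1 to 446 CPM in WT, and T cell markers 8.90 to 13.8 CPM in IR 4A and 7.32 to 18.5 CPM in WT. The part of these in the immunoglobulin levels and shares of eWAT was not tested. The IR 4A sample with the lowest immunoglobulin sum, IR 4A 3, also had the lowest adipocyte and macrophage sums. By median log2 fold change, the 10 macrophage genes stood at -1.21, the 10 adipocyte genes at -0.88, the 12 sperm and testis genes at -0.69, the 12 epididymis genes at 0.77, 4 erythrocyte genes at -0.64, 6 T cell genes at -0.52, 4 lymphoid stroma genes at -0.41 and 5 hepatocyte genes at -0.97. Genes of immunoglobulin receptors and transport stood at -0.71 (10 tested), of B cell cytokines and homing at -0.32 (8) and of class switching and V(D)J joining at -0.05 (5). Of the hepatocyte list, Pck1 and Cyp2e1 differed between WT eWAT and WT liver by -2.80 and -2.86 on the log2 scale, but Tat and Tdo2 by -10.8 and -9.91. The hepatocyte genes tested in eWAT therefore need not share a source, which was not tested. Of the 115 tested genes of the 13 lists, 0 passed in edgeR in eWAT, where 0.0121% of all tested genes did. An unadjusted edgeR p under 0.05 was held by 24 of them, and by 15.9% of all tested genes. DESeq2 called 13, where it called 7.31% of all genes, and limma voom 3, where it called 0.473%. Macrophage genes were 9 of the 24 and 7 of the 13.

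**Figure D5:**
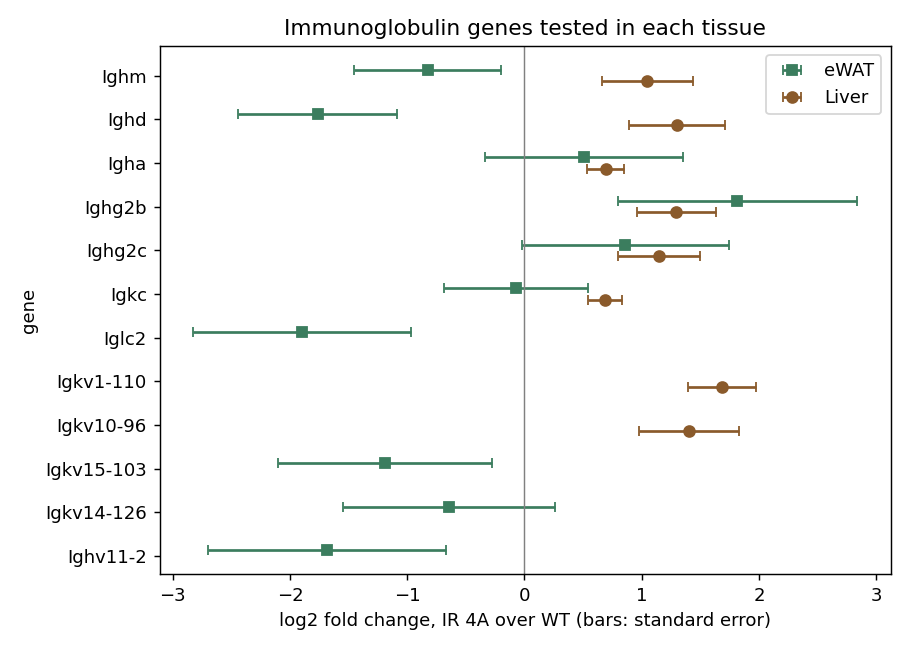
Log2 fold change of IR 4A over WT with its standard error for the 12 members tested in at least 1 tissue, eWAT as squares and liver as circles (edgeR, 5 libraries per group). The 8 liver values run from 0.69 to 1.69. Of these, Igkv1-110, Igkv10-96 and Ighd passed the low count filter wholly or mainly through IR 4A livers. The 10 eWAT values run from -1.90 to 1.82, and Ighv11-2 passed the filter mainly through WT samples.

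Whether the IR 4A change differed between the tissues was tested in 1 fit of all 20 libraries, in which 19 of the 62 shared members passed the filter. Ighd was the 1 member called, with a difference (eWAT minus liver) of -3.09 on the log2 scale (SE 0.81, edgeR adjusted p = 0.0494), where 2.41% of 14696 genes were called. The call sat at the threshold: 9 of 29 other settings kept it (adjusted p 0.00792 to 0.159), among them 5 of the 20 that left out 1 library. It was lost when liver WT 1 and WT 3 and eWAT IR 4A 3, IR 4A 4, WT 1 and WT 2 were left out together. Iglc3 (-3.65, SE 1.24, edgeR adjusted p = 0.0992), Iglv1 (-2.68, SE 1.04, edgeR adjusted p = 0.14) and Ighm (-1.90, SE 0.78, edgeR adjusted p = 0.162) did not pass. For Igha the difference was -0.21 (SE 0.83, edgeR adjusted p = 0.91), so a like change in both tissues and a difference of more than 1 log2 unit both lie within its error.

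Between the tissues of WT mice, eWAT and liver differed most in Ighm, which was higher in eWAT by 4.06 on the log2 scale (SE 0.61, edgeR adjusted p = 5.92e-06). In all, 7 of the 19 tested members passed, where 77.1% of all genes did (43.2% higher in eWAT and 33.9% lower). Of these, Ighm, Igkv14-126 (2.85), Igkv4-91 (2.33), Iglc3 (2.18), Iglc2 (1.82) and Ighd (1.47) were higher in eWAT and Igha lower (-1.47, edgeR adjusted p = 0.0326). Igkv14-126 and Igkv4-91 reached the filter's 10 counts only in eWAT libraries, so their direction was partly set by being tested. Without liver WT 4 or without eWAT WT 4 the count of members called was 3, and without liver WT 5 it was 4. Igha was not called without liver WT 2 or WT 4, without eWAT WT 1 or WT 2, without the 6 libraries left out together above, or with upper-quartile scaling (-1.19, edgeR adjusted p = 0.0767). The values depend on how the tissues are scaled. With library totals in place of TMM the median of all genes moved to 1.69, against 0.20 with TMM, and Igha then stood at 0.01 (edgeR adjusted p = 0.992) and Igkc at 1.14 (edgeR adjusted p = 0.0229, against -0.35 and 0.493 with TMM). Ighm was higher in eWAT under both (5.53 with library totals). In IR 4A mice 10 of the 19 members passed, where 75.3% of all genes did. Ighm was higher in eWAT (2.16, SE 0.55, edgeR adjusted p = 0.00158), and 9 were lower, among them Igha (-1.68, SE 0.60, edgeR adjusted p = 0.0164) and Igkc (-1.13, SE 0.46, edgeR adjusted p = 0.0309). The 75.3% is not split by direction here, so the 9 have no share of lower genes beside them and are no result about the members. Igkv1-110 and Igkv10-96, both among the 9, reached the filter's 10 counts in every IR 4A liver, so their direction was partly set by being tested. The contrast in IR 4A mice was not run under other scalings.

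Part of the immunoglobulin genes has no symbol in the authors' deposited comparison tables and no counts per library in the count tables, which list genes with a symbol. Matching their identifiers to the reference names gave 29 such genes in liver and 34 in eWAT, of which 28 and 33 were heavy variable genes and 1 was Ighg1. Their mean normalised counts in the authors' deposited tables summed to 84.9 in liver and 89.7 in eWAT, or 6.59 and 3.3% of all immunoglobulin signal, but 27.5 and 23.6% of that of variable genes. In liver 23 of the 29 had a log2 fold change above 0 in the authors' deposited table, and in eWAT 9 of the 34. The class shares above therefore leave out Ighg1, and the heavy variable counts are incomplete.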

How the data were processed

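Poly-A RNA of 10 liver and 10 eWAT samples was made into stranded libraries, prepared together, and read as paired reads, per the labels' protocols. The deposited count tables give whole-number counts per gene with a symbol. The submitters' processing notes name the GRCm39 build, DESeq2 1.32.0 and Salmon 1.8.0, without settings. Every listed gene had a sum of at least 10 over its 10 libraries. Per the file headers, the authors' comparison tables hold a normalised mean signal, a log2 fold change and raw and adjusted p-values.

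Entries that repeat an identifier were dropped (83 in liver, 208 in eWAT). Low genes were removed with edgeR 4.0.16 under R 4.3.3 (filterByExpr, at least 10 counts in enough libraries and 15 in total), and libraries were scaled by TMM. The two-sided test was edgeR's quasi-likelihood test, adjusted after Benjamini and Hochberg over all tested genes, with calls at 0.05. A fit of the 14696 tested genes of both tissues gave the tissue contrasts. DESeq2 1.42.0 and limma 3.58.1 were alternatives, as were other scalings and filters and the omission of single libraries. Scripts were tested on simulated data. Biological variation between libraries of a group limits single genes: edgeR's common coefficient was 0.512 in eWAT and 0.187 in liver. No library was a duplicate of another of its group (chi-square per degree of freedom at least 12.5 over 20 pairs in liver and 13.5 over 20 in eWAT). Intervals cover counting error only. Sequences and positions come from GENCODE M21.

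The members and the 13 gene lists were chosen with earlier results of these data known. Named genes were every constant gene, the 10 variable genes highest in each tissue, up to 3 members per direction with the smallest unadjusted p where few passed, up to 4 genes with the smallest unadjusted p of each list, and 8 genes of B and plasma cells and antibody transport, of which 1 is not reported here. Igkv6-14 and some leading variable genes of single libraries were named after their values were seen.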

Additional observations from a re-analysis of the deposited data

Results flagged for a closer look

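Single libraries lay apart from the rest of their group in 20 of 124 groups of 5 looked at, where chance gives about 1 in 20. The groups share libraries and many rest on low counts, so the 1 in 20 is a rough guide only. An excess over chance is not shown by the 20. In liver Ighm reached 10.7 CPM in IR 4A 1 (2.61 to 4.81 in the other IR 4A livers), with an Ighm share of heavy constant counts of 31.8% (8.72 to 14.8%). Iglv1 reached 1.51 CPM and Ighv9-3 reached 0.904 CPM in IR 4A 2 (0.401 to 0.677 and 0.316 to 0.377 in the others). Iglc2 reached 0.801 CPM in IR 4A 4 (0.369 to 0.491), and Iglc3 0.337 CPM in WT 1 (0.123 to 0.166 in the other WT livers).

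In eWAT 5 of these values came from WT 4. There Iglc2 held 11.1 CPM (0.658 to 3.38 in the other WT samples), Iglv2 5.84 CPM (0.0606 to 1.06), Ighv10-3 3.42 CPM (0 to 0.475) and Igkv4-91 3.27 CPM (0.395 to 1.06), and the lambda share of light constant counts was 26.4%. In WT 3 Ighd held 6.92 CPM (1.18 to 2.82) and Igkv1-135 1.58 CPM (0.197 to 0.453). Ighg3 reached 0.588 CPM in IR 4A 5 (0 to 0.069 in the other IR 4A samples). It reached 4.06 CPM in WT 5. In IR 4A 1 Ighg2b held 14.7 CPM (0.207 to 4.38), Ighv11-2 1.5 CPM (0 to 0.327) and Iglv1 1.0 CPM (0.069 to 0.327). In IR 4A 4 Iglc3 held 1.14 CPM (0.0653 to 0.358), and the Ighm share was low, at 51.0% (71.0 to 75.3%).

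The IR 4A change of Ighd was called different between the tissues in the test of the difference itself (-3.092 on the log2 scale, eWAT minus liver, edgeR adjusted p = 0.0494). The call sat at the threshold, and 9 of 29 other settings kept it.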

How the results depend on the processing

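In liver the count of members called by edgeR, 0, was 4 with library totals without TMM and 4 with DESeq2, and 0 to 2 when 1 library was left out (2 without IR 4A 1). In eWAT it was 0 in all 21 alternatives. The 1 member (Ighd) whose change differed between tissues was 0 with RLE scaling, upper-quartile scaling, no low count filter, a replicate block (adjusted p = 0.159) and limma voom, and 0 to 1 when 1 library was left out. DESeq2 called 2, Ighd and Iglc3. It was also 0 without liver WT 1 and WT 3 and eWAT IR 4A 3, IR 4A 4, WT 1 and WT 2, an omission chosen after seeing the data. The 7 members called between WT tissues were 11 with no filter, 4 with the replicate block and 3 to 8 when 1 library was left out. Igkc in eWAT (-0.07) was 0.15 with the replicate block and -0.38 to 0.48 when 1 library was left out. The cause was not tested. The liver sum kept its direction in all 18 alternatives (log2 ratio 0.69 to 0.97), as did the eWAT sum (-0.85 to -0.20). Since the liver groups did not overlap, leaving out libraries under the same scaling could not have turned the sign of the liver sum. Same-numbered libraries did not deviate together: correlations of deviations ran from -0.105 to 0.094 between liver IR 4A and WT and from -0.797 to 0.637 in eWAT, and 1 of 5 and 0 of 5 were best with their own number. Between liver and eWAT of the same genotype the correlations ran from -0.15 to 0.078, and 1 of 10 was best with its own number. So the numbers were not taken as pairs, and the main fit of both tissues treated all libraries as separate samples.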
